A study of Caenorhabditis elegans with 6 samples.

Results

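The response of daf-16(mu86) mutants to octopamine was read from whole-animal Caenorhabditis elegans RNA on a pair of single-colour Affymetrix arrays, chosen by the strain and treatment in their labels. One array held daf-16 animals given octopamine and the other daf-16 animals kept without it, so the comparison used 2 of the 6 arrays of the series. The remaining 4 arrays held wild-type N2 and the double mutant ser-3(ok2007);ser-6(tm2146), called the receptor mutant here, each with octopamine and without. Both mutants are in the N2 background. Per the labels, all animals grew for 3 days and then spent 2 days on plates with 20 mg/mL octopamine or with none, and total RNA was taken with TRIzol. The labels give the stage as day 4 adult and the age at extraction as 5 days. Nothing in the labels ties the 6 arrays to separate cultures, and no group has a replicate array. The error behind the p-values below is how unevenly the strains responded to octopamine. In limma it came in greater part from all genes together than from the gene itself. That unevenness may be technical or may hold real effects of the genotypes, and these arrays cannot separate them.

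Octopamine is a biogenic amine that invertebrates use where vertebrates use noradrenaline. Worms make it from tyramine with the enzyme TBH-1, release it when food is lacking, and sense it with G protein-coupled receptors that include SER-3 and SER-6. DAF-16 is the FOXO transcription factor of the worm, which insulin signalling holds in the cytoplasm and which enters the nucleus under stress or fasting to switch on genes for defence and metabolism. The question that the daf-16 pair addresses is which part of the response to octopamine is present without that factor.

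Signals are linear intensities as deposited, and each log2 ratio is octopamine over untreated after the median of each array was subtracted. Median signals were 25.2 on the treated and 24.6 on the untreated daf-16 array, within the range of 23.77 to 25.96 over all 6 arrays. Of 17118 genes on the array, 10251 had a mean signal of at least 15.5, the 40th percentile of all probe sets, and were analysed. The gene daf-16 itself had 4 probe sets, each dimmer in the daf-16 strain than in N2. The one that differed most had signals of 6.31 and 7.26 on the treated and untreated daf-16 arrays, against 43.4 and 47.7 on the matching N2 arrays. The one that differed least had 196 and 219 on the treated and untreated daf-16 arrays, against 269 treated and 274 untreated on the N2 arrays. The sources used here do not say which of the 4 lie in the deleted stretch, so the dimmer probe sets go with the label without showing how much transcript is missing. With 1 array a side, the daf-16 ratios have no replicate check, and the number of arrays limits the precision. In whole animals, fewer cells of a type and less RNA per cell cannot be told apart.

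Octopamine-treated daf-16 animals differed from untreated ones in genes of defence, digestion, fat use and chromatin. Defence and protein-digesting enzymes were among the highest ratios, with the lysozymes ilys-2 and lys-10 and the cathepsin B-like proteases cpr-1, cpr-4 and cpr-5, together with lipases and the fasting-induced monooxygenase fmo-2. Secreted CUB-like proteins, C-type lectins, core histones (on probe sets that match more than 1 transcript) and the paired genes pud-3 and pud-4 were among the lowest. In all, 79 genes (0.771% of those analysed) were higher by 2-fold or more in treated than in untreated daf-16 animals, and 117 (1.14%) were lower by as much. Past 4-fold were 8 of the higher and 12 of the lower genes. The median daf-16 ratio over all genes was -0.07, and the central 90% of genes lay between -0.57 and 0.47.

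A test was available only by taking the 3 strains as 3 pairs of arrays in an additive limma model with Benjamini-Hochberg adjustment over all genes, and the words rose and fell refer to genes with an adjusted p under 0.05 in it. It called 755 genes risen (7.37%) and 1511 fallen (14.7%) with octopamine. Without the N2 pair of arrays it called 322 risen and 729 fallen. The excess of falls depended on scaling, with 956 risen and 1004 fallen for the values as deposited and 972 risen and 877 fallen under quantile normalization, so each list's counts are to be read against the shares of 7.37% and 14.7%. Of the genes at least 2-fold higher in daf-16, 73 of 79 rose, and of those at least 2-fold lower, 115 of 117 fell. The daf-16 pair is itself 1 of the 3 pairs in this fit, so these counts are a description of the 2-fold genes and not a separate test of them. Probe sets that match more than 1 transcript stood for 28 of the 79 and 33 of the 117. Those of icl-1, cpr-5, cyp-13B1, hch-1, dod-24 and lys-2 are among them, and not every such gene is marked below. A daf-16 signal under 15.5 was found for 12 of the 79 and 11 of the 117. Raising such signals to 15.5, a step chosen after seeing the data, kept 74 of the 79 and 113 of the 117 past 2-fold, while a pseudocount of 16 on every signal left 41 genes higher and 65 lower.

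**Figure D1:**
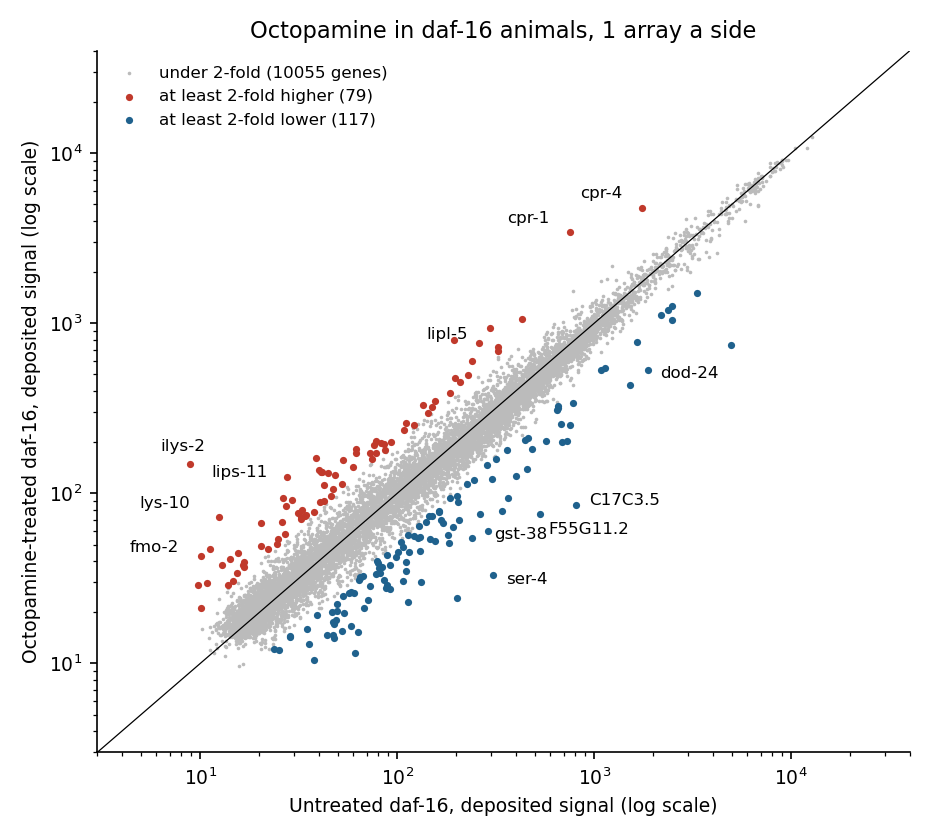
Deposited signals of the genes analysed on the octopamine-treated daf-16 array (vertical axis, log scale) and on the untreated daf-16 array (horizontal axis, log scale), 1 point a gene, with equality as a line. The 79 genes at least 2-fold higher lie above the cloud, ilys-2 farthest from the line, and the 117 at least 2-fold lower lie below it, among them ser-4, C17C3.5 and F55G11.2.

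An antibacterial enzyme had the highest daf-16 ratio of all locus-named genes. The gene ilys-2, which encodes an invertebrate-type lysozyme that cleaves bacterial cell walls, had a signal of 149 on the treated and 8.87 on the untreated daf-16 array, a log2 ratio of 4.03. The untreated signal was under the filter value, and with it raised to 15.5 the ratio was 3.23. Across the strains ilys-2 rose by 3.68 ± 0.14 (SE; limma adjusted p = 1.39e-05, higher in 3 of 3 strains). The gene lys-10, a second type of lysozyme, had 73.1 on the treated and 12.4 on the untreated array, a ratio of 2.52, or 2.20 with the untreated signal raised to 15.5. It rose by 2.05 ± 0.16 across the strains (limma adjusted p = 2.37e-04, higher in 3 of 3). Of the 12 lysozyme genes analysed, 3 were past 2-fold on the higher and 1 on the lower side in daf-16, and 6 rose and 3 fell across strains. The lowest was lys-2, with 1191 on the treated and 2371 on the untreated array and a ratio of -1.03. The family therefore spread in both directions, with a median of 0.12.

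Genes of another secreted defence group were mostly lower. The CUB-like and infection-response list holds small secreted proteins and reporter genes that bacterial infection is known to move. Its 18 genes had a median ratio of -0.59 in daf-16, -1.41 in N2 and -0.63 in the receptor mutant. Over all genes the daf-16 median was -0.07. Of the 18 genes, 8 were at least 2-fold lower in daf-16 while 0 were 2-fold higher. Across strains 11 of them fell and 2 rose. The lowest, F55G11.2, had 76.1 on the treated and 532 on the untreated daf-16 array, a ratio of -2.84. The gene dod-24 had 534 on the treated and 1878 on the untreated array, a ratio of -1.85. C17H12.8 had 204 on the treated and 729 on the untreated array, a ratio of -1.88. The members that rose were the infection-response genes irg-1 and irg-2, with daf-16 ratios of 0.40 and 0.61.

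Among 69 C-type lectins, which bind carbohydrates and are mostly secreted, 9 were at least 2-fold lower and 2 at least 2-fold higher in daf-16. Their median was -0.14, with 27 positive and 42 negative ratios, and 21 fell and 6 rose across strains. The lowest was clec-3, with 16.7 on the treated and 58.0 on the untreated daf-16 array, a ratio of -1.84. The genes clec-222 and clec-223, neighbours among the analysed genes along their chromosome, had ratios of -1.60 and -1.79. The highest lectin was clec-266, with 687 on the treated and 325 on the untreated array, a ratio of 1.04. The 20 short antimicrobial peptides of the epidermis had 10 positive and 10 negative ratios and a median of -0.04, and 6 rose and 5 fell across strains. Of these, nlp-27, nlp-33 and cnc-2 were past 2-fold lower, with ratios of -1.17, -1.09 and -1.06, while nlp-29 stood at 0.47. All 4 of these peptide genes were measured by probe sets that match more than 1 transcript, and their sequences are close, so the values may mix members.

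Cathepsin-type proteases moved in both directions. The cathepsin B-like gene cpr-1 had 3451 on the treated and 753 on the untreated daf-16 array, a ratio of 2.16. Its relative cpr-4 had 4748 on the treated and 1753 on the untreated array, a ratio of 1.40, and cpr-5 had 259.7 on the treated and 111 on the untreated array, a ratio of 1.19. All 3 rose across strains. The related cpr-6 had 2380 on the treated and 3355 on the untreated array, a ratio of -0.53, and fell across strains, as did the aspartyl protease genes asp-14 and asp-8, with daf-16 ratios of -1.85 and -1.18. Of the 31 cysteine and aspartyl protease genes analysed, 5 rose and 13 fell, with a daf-16 median of -0.13.

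Genes of fat use and fasting were found on both sides in daf-16. The gene lips-11, a predicted lipase, had 125 on the treated and 27.5 on the untreated array, a ratio of 2.14. The flavin-containing monooxygenase fmo-2, a gene known to be switched on by fasting, had 42.6 on the treated and 10.1 on the untreated array, a ratio of 2.04, or 1.42 with the untreated signal raised to 15.5. Across strains fmo-2 rose by 1.62 ± 0.19 (SE; limma adjusted p = 0.00130, higher in 3 of 3 strains). The gene icl-1, which encodes the glyoxylate cycle enzyme that lets worms make sugar from fat, had 1054 on the treated and 429 on the untreated array, a ratio of 1.26. On the lower side, the lipase gene lips-5 had 19.2 on the treated and 39.4 on the untreated array, a ratio of -1.07, and acox-1.2, a peroxisomal acyl-CoA oxidase gene, had 16.99 on the treated and 47.9 on the untreated array, a ratio of -1.53. The lists had medians of 0.18 for 15 lipases, 0.06 for 48 beta-oxidation genes and -0.10 for 14 desaturases and elongases.

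Of the 15 fasting-induced genes analysed, 5 were at least 2-fold higher in daf-16, 0 were 2-fold lower, and the median was 0.18. Across strains 5 rose and 1, the stearoyl-CoA desaturase gene fat-7, fell. Besides fmo-2 and icl-1, the 2-fold members were cpt-4, fil-1 and lipl-5. The carnitine palmitoyltransferase gene cpt-4 had 29.6 on the treated and 10.8 on the untreated array. Its untreated signal was under the filter value, and with it raised to that value the ratio was 0.90, short of 2-fold. The cpt-4 probe set matches more than 1 transcript. The lipase gene fil-1 had 38.1 on the treated and 16.6 on the untreated array. The lysosomal lipase gene lipl-5 had 723 on the treated and 324 on the untreated array. Of these 5 genes, lipl-5 alone did not pass the additive test (limma adjusted p = 0.0715). The acyl-CoA synthetase gene acs-2, which fasting is known to raise through the nuclear receptor NHR-49, had 129.9 on the treated and 86.3 on the untreated daf-16 array, a ratio of 0.55, against 0.99 in N2 and 1.71 in the receptor mutant. The desaturase gene fat-7 had 674 on the treated and 1088 on the untreated array, a ratio of -0.73. The fasting list thus moved in parts, with fat-7 and acs-2 on opposite sides.

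Detoxification genes differed gene by gene. Of 35 cytochrome P450 genes, 3 were at least 2-fold higher in daf-16 and 0 lower. The first, cyp-13B1, had 132 on the treated and 44.8 on the untreated array, a ratio of 1.52, and rose across strains. The second, cyp-29A2, had 113 on the treated and 42.5 on the untreated array, a ratio of 1.37, against 0.26 in N2 and 0.02 in the receptor mutant. It did not pass the additive test (limma adjusted p = 0.124), and the difference between daf-16 and the other strains, 1.23 ± 0.32 (SE), had a limma adjusted p of 0.161. The gene fmo-5 had 94.2 on the treated and 26.3 on the untreated array, a ratio of 1.80, against 0.70 in N2 and 0.33 in the receptor mutant, with a difference of 1.29 ± 0.32 (limma adjusted p = 0.139). Its probe set matches more than 1 transcript. Neither gene can be called different in daf-16 from these tests. The cadmium-responsive gene cdr-4 had 173 on the treated and 62.2 on the untreated array, a ratio of 1.44, and rose across strains. The glutathione S-transferase gene gst-4, a common reporter of oxidative stress, had 629 on the treated and 461 on the untreated array, a ratio of 0.41, and did not pass the additive test.

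Genes of water balance and protein folding rose in part. The aquaporin gene aqp-8, a water and glycerol channel, had 129 on the treated and 48.1 on the untreated daf-16 array, a ratio of 1.38. The glycerol-3-phosphate dehydrogenase gene gpdh-1, which makes the osmolyte glycerol, had 350.5 on the treated and 156 on the untreated array, a ratio of 1.13. Of 21 osmotic stress genes, 8 rose and 2 fell across strains, with a daf-16 median of 0.22. Of 23 genes for chaperones and the unfolded protein response of the endoplasmic reticulum, 8 rose and 15 did not pass the additive test, and the daf-16 median was 0.17. Among them the protein disulfide isomerase gene pdi-2 had 559 on the treated and 369 on the untreated array, a ratio of 0.56, and hsp-3, a BiP chaperone gene, had 687 on the treated and 471 on the untreated array, a ratio of 0.51. The other BiP gene, hsp-4, had 1202 on the treated and 1085 on the untreated array, a ratio of 0.11, and did not pass. The 15 cytosolic heat shock genes had a median of 0.03. The 33 proteasome genes had a median of -0.20, with 9 fallen and 24 not past the test.

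**Figure D2:**
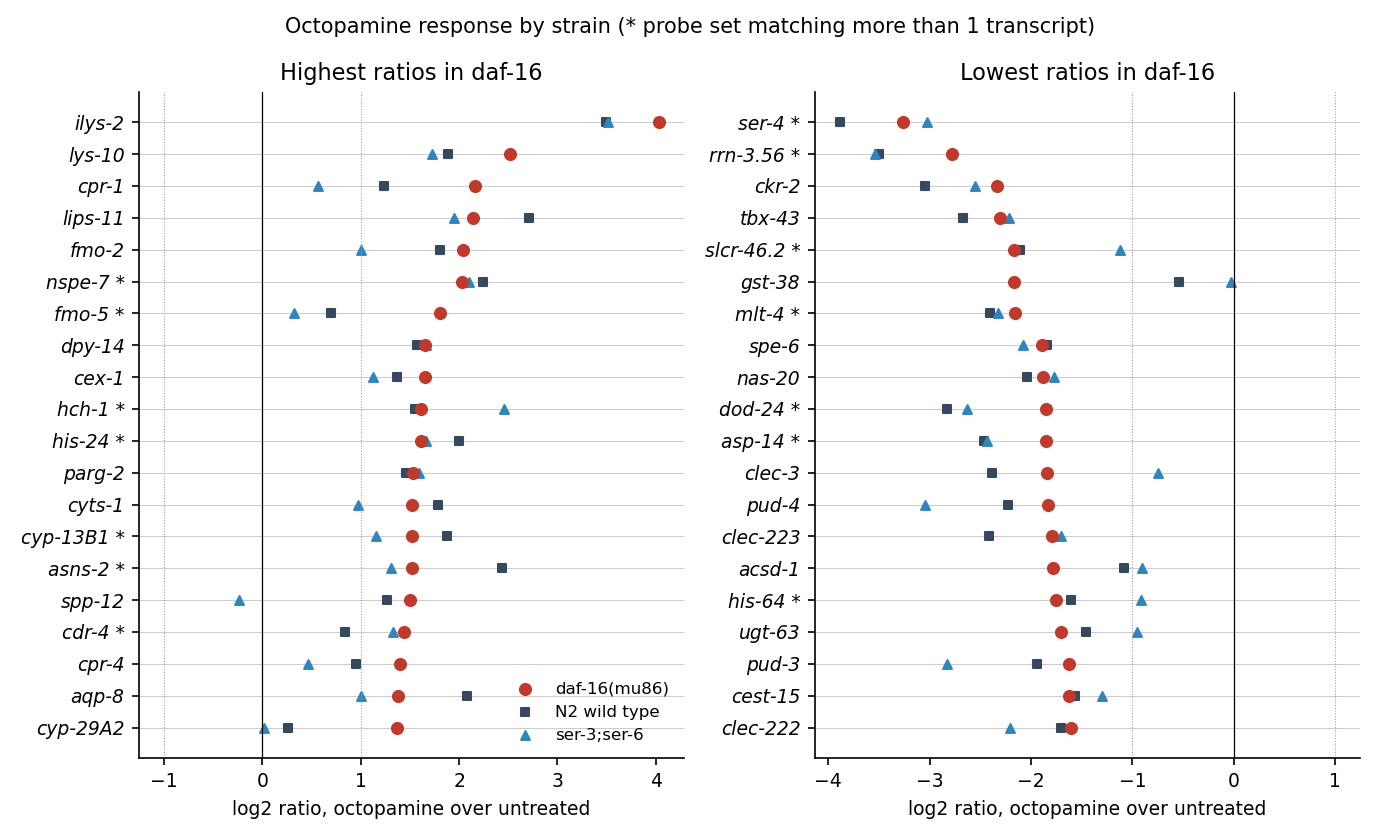
Log2 ratios of octopamine over untreated (horizontal axis) for the 20 highest and the 20 lowest locus-named genes in daf-16, with daf-16 as circles, N2 as squares and the receptor mutant as triangles, 1 pair of arrays a point. Most genes have all 3 strains on the same side of 0, while gst-38 lies at -2.16 in daf-16 and at -0.03 in the receptor mutant, and spp-12 at 1.504 in daf-16 and at -0.23 in the receptor mutant.

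Structural and chromatin genes moved as well. Among histones, 31 genes were analysed, and their daf-16 median was -0.24. It was 0.26 when the probe sets that match more than 1 transcript were left out, so the direction of that median rests on shared probe sets. Across strains 8 of the 31 rose and 12 fell. The linker histone genes his-24, hil-3 and hil-7 had ratios of 1.61, 1.24 and 1.2, while the core histone genes his-64, his-31, his-62 and his-61 had -1.75, -1.49, -1.44 and -1.09. All of these named histone genes were measured by probe sets that match more than 1 transcript, so the values may mix members and are not separate measurements. The linker histone gene his-24 had 933 on the treated and 297 on the untreated daf-16 array. The core histone gene his-64 had 139 on the treated and 457 on the untreated array. The collagen gene dpy-14 had 134 on the treated and 41.3 on the untreated array, a ratio of 1.66, and hch-1, an astacin metalloprotease gene used in hatching, had 91.4 on the treated and 29.1 on the untreated array, a ratio of 1.61. Both rose across strains. The 94 cuticle collagens of the col family had a daf-16 median of -0.14, with 10 risen and 10 fallen, where 7.37% of all genes rose and 14.7% fell.

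A group of F-box genes of the fbxb and fbxc families, whose products pick proteins for degradation, had mostly positive ratios. Of 72 analysed, 57 had a positive daf-16 ratio, against 39.1% of all genes, and their median was 0.24. Across strains 24 rose and 5 fell. The highest was fbxb-54, with 79.4 on the treated and 32.7 on the untreated daf-16 array, a ratio of 1.24, and the lowest was fbxc-42, with 30.9 on the treated and 85.7 on the untreated array, a ratio of -1.51. The 62 genes of the fbxa family had a median of -0.09, close to the -0.07 of all genes.

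**Figure D3:**
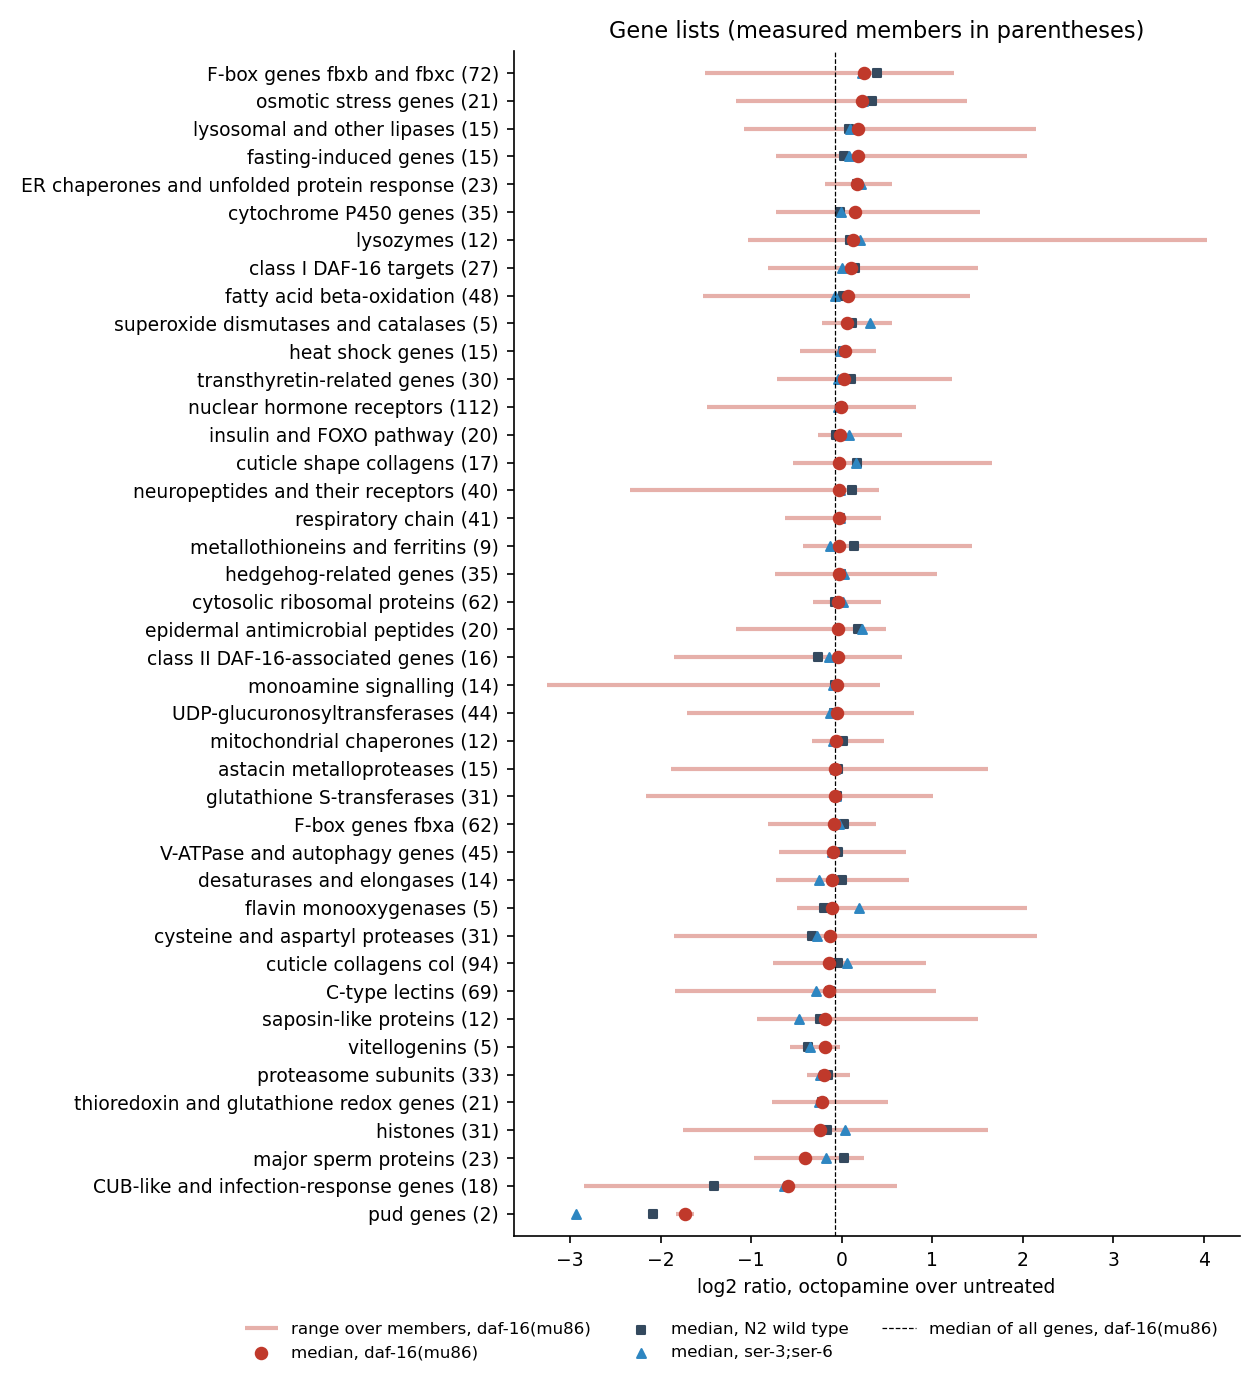
Median log2 ratio of octopamine over untreated for each gene list, with daf-16 as circles, N2 as squares and the receptor mutant as triangles, and the range of the members in daf-16 as a line. The pud genes and the CUB-like list lie lowest and the fbxb and fbxc genes highest in daf-16, while most medians lie near the median of all genes (dashed).

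Among receptors, the serotonin receptor gene ser-4 had the lowest ratio of any locus-named gene. Its probe set had 32.9 on the treated and 307 on the untreated daf-16 array, a ratio of -3.26, and fell by 3.39 ± 0.16 on the log2 scale across strains (SE; limma adjusted p = 4.19e-05, lower in 3 of 3 strains). That probe set is marked by its design name as matching more than 1 transcript. The other ser-4 probe set, which carries no such mark, had 9.37 on the treated and 9.18 on the untreated daf-16 array, a ratio of -0.01, at a signal too dim to show a fall. The change is therefore known for 1 probe set and not for the gene. The cholecystokinin-like receptor gene ckr-2 had 22.98 on the treated and 113 on the untreated array, a ratio of -2.34, and fell in the same test. The octopamine receptor gene ser-3 had 30.8 on the treated and 22.4 on the untreated array, a ratio of 0.42, and octr-1, another octopamine receptor gene, had 27.4 on the treated and 20.4 on the untreated array, a ratio of 0.39. Neither passed the additive test. The genes of octopamine synthesis, tdc-1 and tbh-1, had ratios of -0.34 and -0.06 and did not pass it either. No probe set named for ser-6 was used here.

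The paired genes pud-3 and pud-4, which encode proteins of unknown function that are abundant in dauer larvae and daf-2 mutants, were lower. In daf-16 animals pud-3 had 251 on the treated and 755 on the untreated array, a ratio of -1.63, and pud-4 had 199 on the treated and 689 on the untreated array, a ratio of -1.83. The ratios were -1.94 and -2.22 in N2 and -2.83 and -3.04 in the receptor mutant. Both fell across strains.

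Yolk, redox, ribosomal and nuclear receptor genes had medians within 0.3 of 0. All 5 vitellogenins, the yolk proteins made by the intestine, had negative ratios, with a median of -0.19 that was 0.00 under quantile normalization, and 4 fell across strains. The 21 genes of thioredoxin, peroxiredoxin and glutathione redox control had a median of -0.22, with 9 fallen and 2 risen. Cytosolic ribosomal proteins, 62 in all, had a median of -0.04, and 112 nuclear hormone receptors a median of 0.00, with 5 risen and 5 fallen.

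Genes usually read as DAF-16 targets were then examined in the strain that lacks it. Class I genes are those known to be higher when insulin signalling is low and DAF-16 is active. Of 27 analysed, 2 were at least 2-fold higher in daf-16 and 0 lower, the median was 0.11, and 7 rose and 3 fell across strains. The classical reporter sod-3, a mitochondrial superoxide dismutase gene, had 12.01 on the treated and 11.23 on the untreated daf-16 array, both under 15.5, and a ratio of 0.06. The metallothionein gene mtl-1 had 24.5 on the treated and 28.9 on the untreated array, a ratio of -0.27, and did not pass the additive test. The metallothionein gene mtl-2 had 3290 on the treated and 4297 on the untreated array, a ratio of -0.42, and fell across strains.

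Other class I genes were higher in treated daf-16 animals. The ferritin gene ftn-1, which stores iron, had 86.7 on the treated and 43.7 on the untreated array, a ratio of 0.95, against 0.79 in N2 and 1.72 in the receptor mutant. The gene dod-3 had 99.4 on the treated and 56.4 on the untreated array, a ratio of 0.78, against 0.80 in N2 and 1.48 in the receptor mutant. Both rose across strains, as did icl-1. The class I gene spp-12, a saposin-like gene, had 41.2 on the treated and 14.2 on the untreated array, a ratio of 1.504, against 1.27 in N2 and -0.23 in the receptor mutant, and did not pass the additive test (limma adjusted p = 0.0678). Of 16 class II genes, which are known to be lower when DAF-16 is active, 2 were at least 2-fold lower in daf-16, namely dod-24 and dod-17, and the median was -0.04, or 0.00 under quantile normalization. The class II insulin-like gene ins-7 had 145 on the treated and 88.7 on the untreated array, a ratio of 0.67, and rose across strains. Among 20 genes of the insulin and FOXO pathway, 2 rose and 18 did not pass the additive test, at a daf-16 median of -0.02 that was 0.02 with values as deposited and 0.06 under quantile normalization. The insulin receptor gene daf-2 had 23.6 on the treated and 22.5 on the untreated array, a ratio of 0.03.

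The daf-16 response was next set beside the octopamine change that limma fitted for N2 and the receptor mutant. This change was a term of a fit on all 6 arrays in which daf-16 had an octopamine term of its own. The daf-16 arrays did not enter the term or its residual, but they entered the mean signal used for the variance trend. The term called 582 genes risen (5.68%) and 1074 fallen (10.5%) with octopamine. A fit on the 4 arrays alone called 580 risen and 1067 fallen. Here too the excess of falls depended on scaling, with 529 risen and 507 fallen for the values as deposited and 724 risen and 665 fallen under quantile normalization. Of the risen genes 561 (96.4%) had a positive ratio in daf-16, with a median of 0.46 against a fitted median of 0.61 in the other strains. Of the fallen genes 1031 (96.0%) had a negative ratio in daf-16, with a median of -0.45 against a fitted median of -0.59. For comparison, 39.1% of all genes had a positive ratio in daf-16. The daf-16 ratio reached at least 50% of the fitted change for 421 of the risen (72.3%) and 820 of the fallen genes (76.4%). The fitted medians come from genes chosen by that same fit, and the daf-16 medians do not, so the sizes are not compared further. Where the fitted change was at least 2-fold, 91 of 93 risen genes and 147 of 150 fallen genes had the same direction in daf-16, and 52 and 86 were at least 2-fold in daf-16 too.

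Read from the daf-16 side, the same overlap appeared gene by gene. The share of all genes past 2-fold was 1.2% on the higher and 1.45% on the lower side in N2, and 0.985% on the higher and 2.17% on the lower side in the receptor mutant. Of the 79 genes at least 2-fold higher in daf-16, 60 were at least 2-fold higher in N2, which is 75.9% of the daf-16 list and 48.8% of the N2 list. In the receptor mutant 44 were, which is 55.7% of the daf-16 list and 43.6% of the receptor mutant's. Of the 117 genes at least 2-fold lower, 87 were so in N2, which is 74.4% of the daf-16 and 58.4% of the N2 list, and 80 in the receptor mutant, which is 68.4% of the daf-16 and 36.04% of the receptor mutant's list. The direction was the same in both other strains for 76 of the 79 and 116 of the 117. At the 2-fold threshold, 16 higher and 19 lower genes were past it in daf-16 and in neither other strain, but 2-fold is a fixed line and most of these had ratios in the same direction elsewhere. An example is cpr-4, at 1.40 in daf-16, 0.95 in N2 and 0.46 in the receptor mutant.

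Whether a gene's response in daf-16 differed from that in the other strains was tested as a term of its own in limma. The fit left 1 residual degree of freedom, from the difference between N2 and the receptor mutant, and so assumed that the daf-16 pair varies as those pairs do. To this limma added 48.2 prior degrees of freedom from the mean-variance trend over all genes. Each gene's standard error thus rests mostly on that trend and little on the gene's own difference between N2 and the receptor mutant. Of 10251 genes, 5 had a higher response in daf-16 (0.0488%) and 4 a lower one (0.039%) at an adjusted p under 0.05, and 263 (2.57%) had an unadjusted p under 0.05. A calibrated test with no true difference would put a fraction of 0.05 of genes there, so these counts may be too low. The cause of the smaller share was not tested. The median standard error of the difference was 0.29, and on simulated data the test recovered 60.8% of differences of 1 on the log2 scale but 7.20% of differences of 0.5. A gene that does not appear among the 9 may therefore still differ by such an amount. The simulated noise was normal with the variances of the fit itself, so these rates hold only where that error model does. With the values as deposited 0 genes passed as higher and 1, lea-1, as lower, while 199 had an unadjusted p under 0.05. Under quantile normalization the counts were 5 higher and 4 lower.

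**Figure D4:**
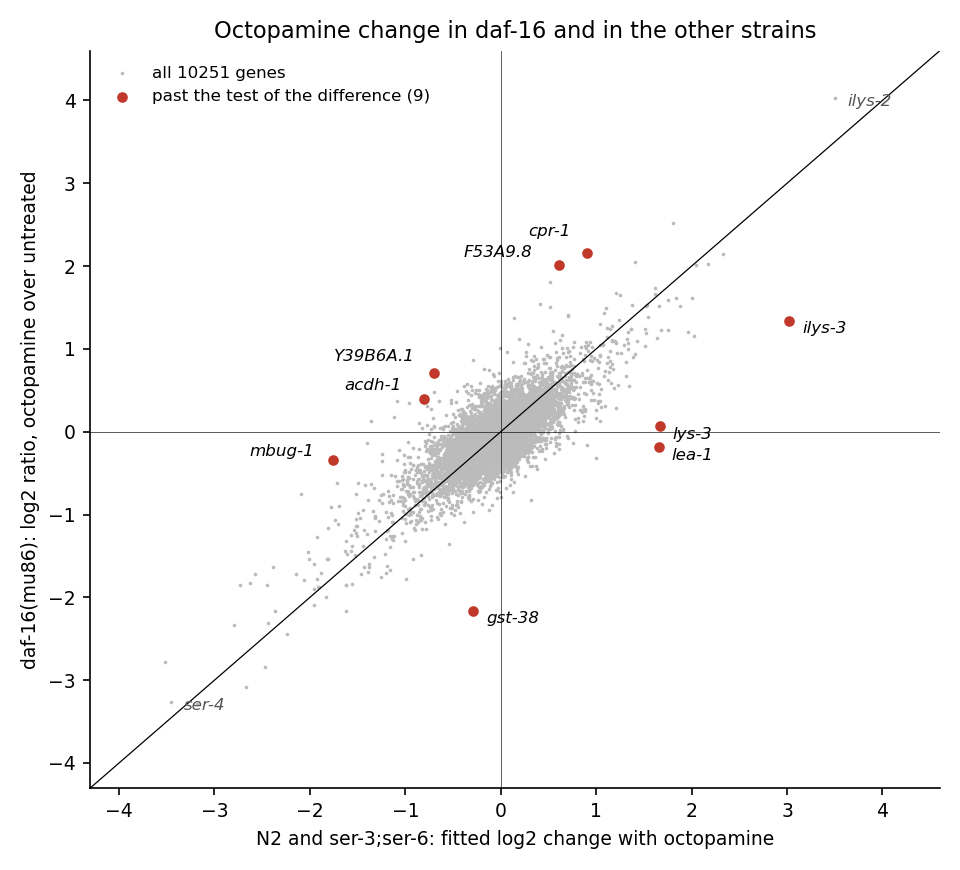
Log2 ratio of octopamine over untreated in daf-16 (vertical axis) against the change fitted from N2 and the receptor mutant (horizontal axis), 1 point a gene, with equality as a line. The 9 genes past the test of the difference are marked, 5 above the line, cpr-1 and F53A9.8 among them, and 4 below it, gst-38, lea-1, lys-3 and ilys-3.

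Of the genes with a higher response in daf-16, cpr-1 and F53A9.8 were higher with octopamine in each strain, and most so in daf-16. The protease gene cpr-1 differed by 1.26 ± 0.21 (SE; limma adjusted p = 9.07e-04). Its signals were 3451 on the treated and 753 on the untreated daf-16 array, 4040 treated and 1608 untreated on the N2 arrays, and 4883 treated and 3191 untreated on the receptor mutant arrays. The untreated daf-16 level was thus the lowest of the 3 untreated levels, while the treated levels lay closer together. F53A9.8 is a gene without a named function, and its probe set matches more than 1 transcript. F53A9.8 had 801 on the treated and 194 on the untreated daf-16 array. It had 638 treated and 298 untreated on the N2 arrays, and 658 treated and 551 untreated on the receptor mutant arrays. It differed by 1.40 ± 0.26 (limma adjusted p = 0.00205) and again began from the lowest untreated level in daf-16.

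The acyl-CoA dehydrogenase gene acdh-1, which takes part in breaking down propionate and branched-chain amino acids, went in opposite directions. It had 1324 on the treated and 979 on the untreated daf-16 array, against 1256 treated and 2224 untreated on the N2 arrays and 848 treated and 1332 untreated on the receptor mutant arrays. The difference was 1.205 ± 0.21 (SE; limma adjusted p = 9.58e-04). Y39B6A.1 had the same pattern, with 496 on the treated and 296 on the untreated daf-16 array, against 596 treated and 748 untreated in N2 and 516 treated and 986 untreated in the receptor mutant, a difference of 1.41 ± 0.24 (limma adjusted p = 9.58e-04). A second Y39B6A.1 probe set, which matches more than 1 transcript, gave a ratio of 1.16 in daf-16, against -0.27 in N2 and -0.32 in the receptor mutant. For acdh-1 and Y39B6A.1 the untreated daf-16 level was the lowest of the untreated levels. The log2 ratio of daf-16 over N2 was -1.23 untreated and 0.08 treated for acdh-1, and -1.39 untreated and -0.26 treated for Y39B6A.1. The treated daf-16 level of acdh-1 was the highest of the treated levels. For mbug-1 the signal was 646 on the treated and 799 on the untreated daf-16 array, against 295 treated and 830 untreated in N2 and 82.9 treated and 307 untreated in the receptor mutant. It was lower in every strain and least so in daf-16, with a difference of 1.41 ± 0.25 (limma adjusted p = 0.00117).

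Lower responses in daf-16 were found for the lysozyme genes ilys-3 and lys-3. Among the analysed genes along its chromosome, ilys-3 lies next to ilys-2. It had 67.7 on the treated and 26.1 on the untreated daf-16 array, against 189.6 treated and 24.01 untreated in N2 and 238 treated and 25.7 untreated in the receptor mutant. The untreated levels were alike, and the treated level in daf-16 was the lowest of the 3, with a difference of -1.69 ± 0.32 (SE; limma adjusted p = 0.00338). Its neighbour ilys-2 had ratios of 4.03 in daf-16, 3.49 in N2 and 3.51 in the receptor mutant, and did not pass the test, with a difference of 0.53 ± 0.32 (limma adjusted p = 1.00). The gene lys-3 had 20.1 on the treated and 18.8 on the untreated daf-16 array, against 35.9 treated and 11.37 untreated in N2 and 37.6 treated and 10.7 untreated in the receptor mutant, a difference of -1.60 ± 0.29 (limma adjusted p = 0.00179). Its untreated signals in N2 and the receptor mutant were under 15.5, and with a pseudocount of 16 the difference was -0.89 (limma adjusted p = 0.0262). Its probe set matches more than 1 transcript.

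The gene lea-1, which encodes a protein related to those that protect plant embryos during drying and is counted among class I genes, had the smallest adjusted p of the 9. Its brightest probe set, which matches more than 1 transcript, had 467 on the treated and 517 on the untreated daf-16 array, against 1596 treated and 542 untreated in N2 and 2611 treated and 706 untreated in the receptor mutant. The difference was -1.84 ± 0.22 (SE; limma adjusted p = 6.64e-07). A second probe set had the same pattern, with 261 treated and 299 untreated in daf-16, 849 treated and 309 untreated in N2, and 1620 treated and 379 untreated in the receptor mutant. The other 4 lea-1 probe sets did not, with daf-16 ratios between -0.05 and 0.40 and no ratio above 0.32 in the other strains, so the difference was seen for part of the gene's probe sets. It was -0.43 with the median over the gene's probe sets and 0.41 without shared probe sets (limma adjusted p = 1.00 for each). Which transcripts each probe set reads was not tested.

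The glutathione S-transferase gene gst-38, of a family that joins glutathione to toxic compounds, stood apart at its untreated level. It had 78.3 on the treated and 342 on the untreated daf-16 array, against 56.6 treated and 77.6 untreated in N2 and 60.4 treated and 59.6 untreated in the receptor mutant. Of the 6 arrays, the untreated daf-16 array alone was high, and the difference of -1.88 ± 0.32 (SE; limma adjusted p = 9.58e-04) rests on that 1 array.

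**Figure D5:**
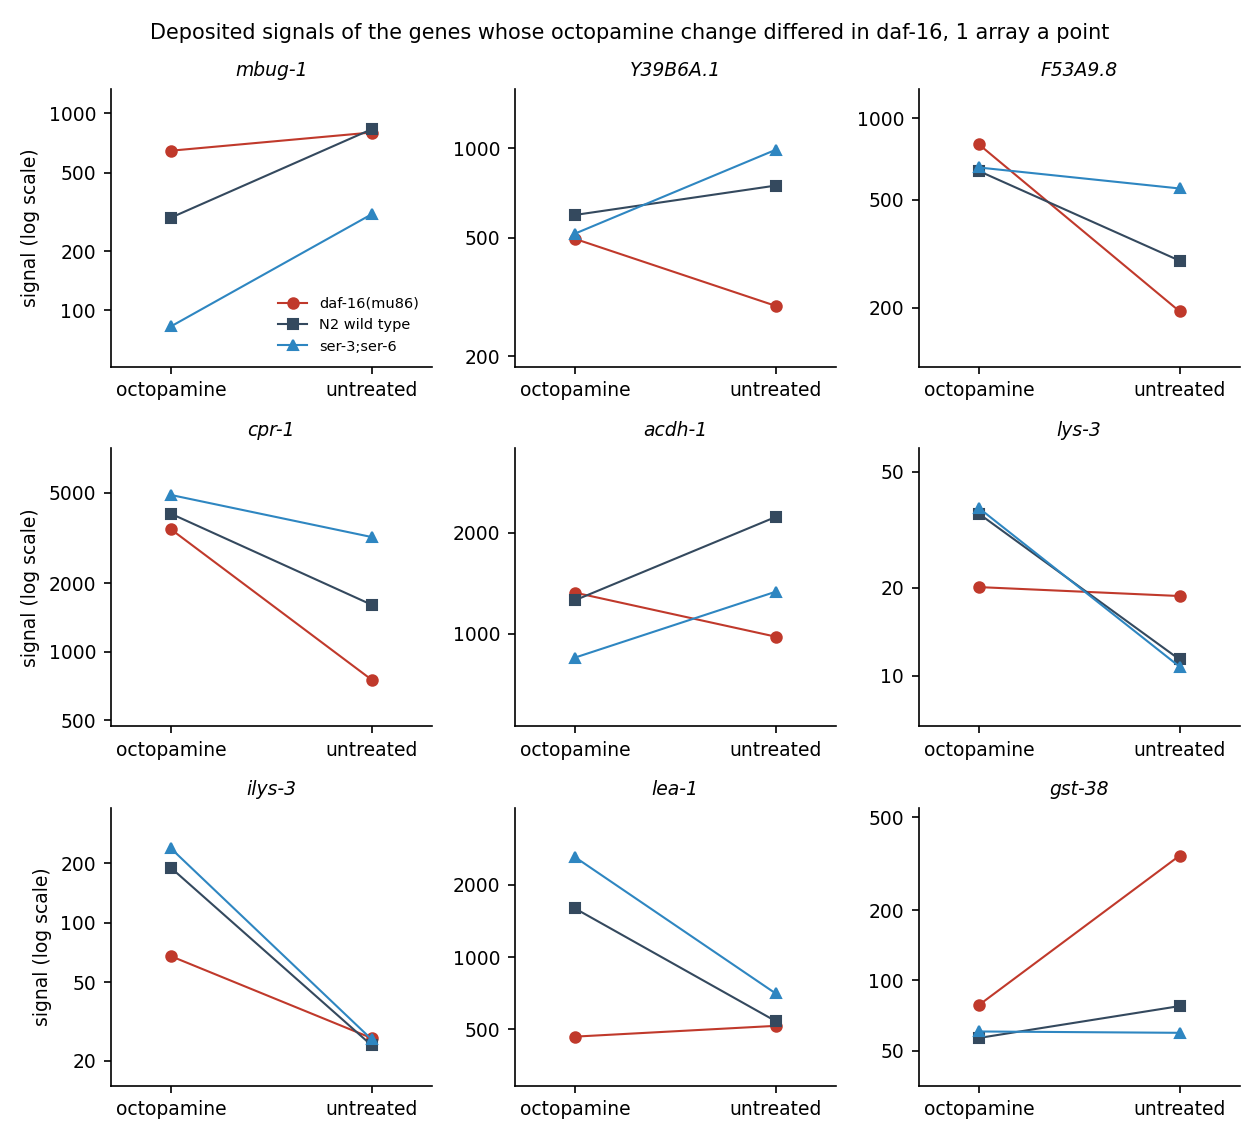
Deposited signals (vertical axis, log scale) of the 9 genes past the test of the difference, on the octopamine-treated (left) and untreated (right) array of daf-16 (circles), N2 (squares) and the receptor mutant (triangles), 1 array a point. For ilys-3 and lea-1 the strains part on the treated side, and for cpr-1, F53A9.8, Y39B6A.1 and gst-38 on the untreated side. For acdh-1 daf-16 parts from N2 on the untreated side.

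Genes of fat metabolism gave further values on the same question without passing it. The lysosomal lipase gene lipl-5 had 723 on the treated and 324 on the untreated daf-16 array, against 769 treated and 577 untreated in N2 and 857 treated and 796 untreated in the receptor mutant, and its difference of 0.93 ± 0.23 (SE) had a limma adjusted p of 0.135. The lysosomal lipase gene lipl-2 had 24.5 treated and 20.99 untreated in daf-16, against 21.7 treated and 50.2 untreated in N2 and 24.6 treated and 45.9 untreated in the receptor mutant, with a difference of 1.31 ± 0.31 (limma adjusted p = 0.0961). The elongase gene elo-6 had 706 treated and 411 untreated in daf-16, against 1290.3 treated and 1181 untreated in N2 and 797 treated and 939 untreated in the receptor mutant, with a difference of 0.87 ± 0.22 (limma adjusted p = 0.161). These 3 genes had a lower untreated level in daf-16 than in the other strains.

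Markers of tissues were read for shifts in the makeup of the animals. Of the 20 highest genes, hch-1 was on the hypodermis list and his-24 on the embryo list, so these values stand beside the lists' own. Whether either gene marks that tissue in these animals was not tested. Summed signals of 26 germline and oocyte markers were 55783 on the treated and 59171 on the untreated daf-16 array, and those of 19 intestine markers 25558 treated and 27074 untreated. The 15 hypodermis markers summed to 10476 treated and 11058 untreated, and the 13 embryo markers to 3247 treated and 2863 untreated. Without his-24 the other 12 embryo markers summed to 2314 treated and 2566 untreated, and 8 of the 13 ratios were negative. For the 19 body wall muscle markers the sums were 13036 on the treated and 11587 on the untreated array, and 17 of the 19 ratios were positive. Of 6 sperm markers 5 were lower, with spe-6 at 10.5 on the treated and 37.9 on the untreated array and spe-15 at 38.96 on the treated and 79.5 on the untreated array, and their sums were 613 treated and 786 untreated. The 23 major sperm protein genes, whose sequences are close, had a median of -0.41 in daf-16, against 0.03 in N2 and -0.18 in the receptor mutant, and summed to 1048 on the treated and 1387 on the untreated daf-16 array. Across strains 1 of the 23, msp-36, fell and 22 did not pass the additive test. Its difference in daf-16 was -0.68 ± 0.32 (SE; limma adjusted p = 1.00). The part of these shifts in the gene ratios above was not tested.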

How the data were processed

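RNA of 6 groups, 1 Affymetrix array each, was analysed from the deposited table of the series, which holds 1 intensity per probe set and array on a linear scale. The sources used here do not state how the authors summarised probes and normalised arrays, nor a genome build. Of 22625 probe sets, 77 controls were left out, 20766 of the remaining 22548 had 1 gene in the platform annotation, which can be old, 887 had several and 895 none. Entrez identifiers matched 20701 to assembly WBcel235, used for names and gene order only. The brightest probe set stood for a gene. Intensities were put on the log2 scale with no pseudocount, each array's median was subtracted, and genes at or above the 40th percentile of mean signal, 15.5, were kept. No detection calls were used.

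With 1 array a side, daf-16 ratios have no test. In limma 3.58.1 (R 4.3.3), with a mean-variance trend and Benjamini-Hochberg adjustment over 10251 genes at 0.05, an additive fit had 3 strains and octopamine (2 residual degrees of freedom). A second fit added octopamine in daf-16 (1 residual degree of freedom, 48.2 prior). Its remaining octopamine term gave the change in N2 and the receptor mutant. On simulated data with 200 of 10251 genes changed in each of 5 rounds, the additive fit recovered 80.8% of changes of 0.5 and 100% of 1, with 7.84% false calls. The difference term of the second fit recovered 7.20% of 0.5, 60.8% of 1 and 100% of 2, with 5.37% false calls. Its term for N2 and the receptor mutant recovered 40.8%, 97.6% and 100%, with 4.30%. Simulated noise was normal and independent between arrays, with each fit's own moderated variances and no other differences between strains or treatments. The recovery and false call rates thus assume the error model of the fits. Other steps used Python 3.11.15, numpy 2.4.6, pandas 2.3.3, scipy 1.17.1 and matplotlib 3.10.9.

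Named genes were the 20 highest and 20 lowest with a locus name and a signal of at least 30 on the brighter daf-16 array. To these were added the ends and 2-fold members of 51 gene lists and the genes past the difference test or next to it by size. Also included were daf-16, the octopamine receptor genes ser-3 and ser-6 where measured, and DAF-16 reporters. The last were genes past 2-fold in daf-16 alone with both other ratios within 0.3 of 0. Other genes named were chosen after their values were seen. The members, lists and tests were chosen with earlier results of these data known. Alternatives changed the scaling, filter, pseudocount, probe set rule, shared probe sets, trend and strains, and 1 more, a floor at 15.5, was added after seeing the data. Sequences were not used here.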

Additional observations from a re-analysis of the deposited data

Results flagged for a closer look

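In 9 genes the octopamine change in daf-16 differed from that in N2 and the receptor mutant by limma's test of the difference, which has 1 residual degree of freedom and takes the daf-16 pair to vary as the other pairs do. The differences, daf-16 minus the other strains on the log2 scale, were 1.41 for mbug-1, 1.41 for Y39B6A.1, 1.40 for F53A9.8, 1.26 for cpr-1 and 1.205 for acdh-1, and -1.60 for lys-3, -1.69 for ilys-3, -1.84 for lea-1 and -1.88 for gst-38.

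How many alternatives each passed varied. The lysozyme gene ilys-3, gst-38 and lea-1 passed in 6 of 8, with limma adjusted p between 3.27e-04 and 0.169 for ilys-3, between 1.67e-05 and 0.148 for gst-38, and between 2.97e-06 and 1.00 for lea-1. For lea-1 the difference was -0.43 with the median over probe sets and 0.41 without shared probe sets. The genes cpr-1, acdh-1, mbug-1 and Y39B6A.1 passed in 5 of 8, with highest adjusted p of 0.377, 0.236, 0.206 and 0.266. The gene lys-3 passed in 4 of the 6 that kept it, with a difference of -0.89 at a pseudocount of 16, and F53A9.8 in 3 of 7. No pair of arrays has a replicate, so none of the 9 has a check within its own strain. The error of the test came mostly from the mean-variance trend over all genes and little from each gene's own values.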

How the results depend on the processing

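The sign of the daf-16 ratio turned under some alternative for 16 of 347 named genes, lea-1 and sod-3 among them, all with ratios of at most 0.25 in size. At least 2-fold higher in daf-16 were 79 genes, or 41 with a pseudocount of 16. At least 2-fold lower were 117, or 76 with a filter at the 60th percentile and 65 with the pseudocount. Across 3 strains 755 genes rose, or 482 without shared probe sets and 322 without the N2 pair of arrays, and 1511 fell, or 877 under quantile normalization, 1004 with values as deposited and 729 without the N2 pair. In N2 and the receptor mutant 582 rose, or 382 without shared probe sets, and 1074 fell, or 665 under quantile normalization and 507 as deposited. Rises were thus 33.3% of the calls across strains, against 48.8% as deposited and 52.6% under quantile normalization, and 35.1% of those in N2 and the receptor mutant, against 51.1% and 52.1%. Of the difference calls 5 were higher and 4 lower. The counts were 0 and 0 with the median over probe sets (222 unadjusted p under 0.05 in limma), 0 and 4 without the trend (266), 0 and 1 as deposited (199), and 12 and 2 without shared probe sets. Their higher share was thus 55.6%, against 0% as deposited and 85.7% without shared probe sets. Of the list medians, that of histones reversed, at -0.24 and 0.26 without shared probe sets, 7 other values moved and 347 did not. Scaling turned the sign of 15 of 51 medians, none beyond 0.10 in size. Of the named genes' ratios 92 moved and 2472 did not. The cause of these shifts was not tested. The fit across strains already pairs the arrays by strain. Low signal limits genes near 15.5.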

Other observations

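Several genes without a named function held ratios as far from 0 as the named ones, and were chosen here after their values were seen. C17C3.5 had 85.0 on the treated and 811 on the untreated daf-16 array, a ratio of -3.29, against -3.21 in N2 and -3.16 in the receptor mutant. ZK354.2 had 24.3 on the treated and 201 on the untreated array, a ratio of -3.08, and F01D5.2 had 203 on the treated and 571 on the untreated array, a ratio of -1.53. On the higher side, Y110A2AL.4 had 161 on the treated and 38.9 on the untreated array, a ratio of 2.01, and K11H12.6 had 137.7 on the treated and 40.2 on the untreated array, a ratio of 1.74, against 1.70 in N2 and 1.54 in the receptor mutant. Of the 2-fold genes, 26 of the 79 higher and 52 of the 117 lower have no locus name.

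Analysed genes were put in order along the chromosomes of assembly WBcel235, leaving out genes under the filter, and neighbours in that order shared a direction in some cases. Of the 79 higher genes 6 (7.59%) lay next to another of them, among them ilys-3 with ilys-2. Of the 117 lower genes 19 (16.24%) did, among them pud-3 with pud-4, clec-222 with clec-223, his-61 with his-62 and C17H12.8 with C17H12.6. Of all analysed genes, 0.771% were on the higher and 1.14% on the lower list, and each gene can have a neighbour on either side. Whether the counts exceed those of genes placed at random was not tested. The longest run was ckr-2, dpy-1 and Y39A3A.3.

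Some genes had probe sets beside the one used. For 16 of the higher genes there were 19 others, of which 17 had the same sign and 8 were at least 2-fold, and for 11 of the lower genes 11 others, all 11 of the same sign and 6 at least 2-fold.

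The ribosomal RNA probe set rrn-3.56 had 743 on the treated and 4970 on the untreated daf-16 array, a ratio of -2.78, against -3.50 in N2 and -3.54 in the receptor mutant. The 3' over 5' signal ratio of the Gapdh control transcript was 1.03 on the treated and 1.24 on the untreated daf-16 array, and that of ubiquitin 5.74 on the treated and 5.37 on the untreated array.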
